A study of Mus musculus with 8 samples.

Results

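The CCAAT/enhancer-binding protein (C/EBP) family was described here through the histone H3 lysine 27 acetylation (H3K27ac) regions at and around its genes in mouse primary hepatocytes (MPH) undergoing acute endoplasmic reticulum stress (ERS). The members, chosen by name with earlier results of these data known, were Cebpa, Cebpb, Cebpd and Cebpg. They were 4 of the 9820 protein-coding genes with a transcription start site (TSS) in any of the regions. Every region that held a TSS of these genes, or lay within 100 kb of one, was taken with its class and its width. This gave 29 of 32196 regions.

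C/EBP proteins are basic leucine zipper transcription factors. They bind DNA as dimers with each other or with other leucine zipper proteins, and they recruit coactivators with acetyltransferase activity. C/EBPα, encoded by Cebpa, maintains the differentiated state of hepatocytes and their control of glucose and lipid metabolism. C/EBPβ, encoded by Cebpb, is a factor of the acute-phase response and of regeneration, is also made as a shorter inhibitory isoform, and is a known target of the stress-responsive factor ATF4. C/EBPδ, encoded by Cebpd, is an acute-phase factor that is low in resting liver, and C/EBPγ, encoded by Cebpg, lacks a typical activation domain and pairs with other leucine zipper proteins including ATF4. H3K27ac marks active promoters and enhancers.

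The hepatocytes came from adult male wild-type mice on the C57Bl6 background (C57BL/6J in the study's methods) and were kept in William's medium without serum. One group received 1 µM thapsigargin, which empties calcium from the endoplasmic reticulum, for 4 h, and the other received the vehicle, 0.04% DMSO, for the same time. For each treatment, the chromatin of 3 separate experiments was immunoprecipitated and 1 library of input DNA was sequenced, and a primary culture of this kind is a model of isolated hepatocytes outside the liver. The authors' differential calls, paired by experiment, were deposited as 3 lists of regions with higher signal after thapsigargin (H3K27ac UP), lower signal (H3K27ac DOWN) or no call (unchanged). The lists held positions only, with no signal, fold change or value for a library. The size of each change and its spread between experiments were therefore unknown, and "unchanged" means that the region did not pass the authors' threshold. Per the study's methods, an UP or DOWN call also needed one direction to prevail among the bins, or short stretches, of a region. A region that passed the threshold with mixed bins would be in none of the 3 lists. A TSS in no region may therefore still carry H3K27ac, which was not tested.

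Over the whole series, 17.1% of regions were H3K27ac UP and 10.5% were H3K27ac DOWN, and no regions overlapped. The cell type was checked by markers. All 7 hepatocyte markers had a TSS in a region, against 0 of 4 Kupffer cell markers, 1 of 4 endothelial markers (Stab2, unchanged), 0 of 4 stellate cell markers and 1 of 4 cholangiocyte markers (Sox9, H3K27ac UP). Fewer of the 16 markers of other liver cells than of the hepatocyte markers were at a region, and the part of other cells in any change was not tested.

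The 4 genes did not share a class. Cebpb and Cebpg each had a TSS in an H3K27ac UP region, Cebpd in an H3K27ac DOWN region and Cebpa in an unchanged region. The counts were thus 2 UP, 1 DOWN and 1 unchanged, beside 21.6% of all 9820 genes with a TSS in an UP region and 8.33% with one in a DOWN region. With 4 genes, these counts do not separate the family from other genes. All TSS-holding regions of the family were wide, from 4379 to 8393 bp.

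The sequences just upstream of the TSSs showed a shared feature of 3 members that the class did not follow. The 250 bases before the RefSeq start (GRCm38.p6, which has the coordinates of mm10) are shown because the regions cover them, with each CpG dinucleotide in capitals and each sequence 5′ to 3′ on the strand of its gene. Cebpd was not among the promoter entries.
Cebpa, chr7:35119043-35119292, plus strand: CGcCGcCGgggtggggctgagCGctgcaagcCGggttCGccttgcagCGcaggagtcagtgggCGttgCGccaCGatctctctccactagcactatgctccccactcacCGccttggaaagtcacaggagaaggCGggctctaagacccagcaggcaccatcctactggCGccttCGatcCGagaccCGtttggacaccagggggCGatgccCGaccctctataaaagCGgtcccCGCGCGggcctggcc
Cebpb, chr2:167688665-167688914, plus strand: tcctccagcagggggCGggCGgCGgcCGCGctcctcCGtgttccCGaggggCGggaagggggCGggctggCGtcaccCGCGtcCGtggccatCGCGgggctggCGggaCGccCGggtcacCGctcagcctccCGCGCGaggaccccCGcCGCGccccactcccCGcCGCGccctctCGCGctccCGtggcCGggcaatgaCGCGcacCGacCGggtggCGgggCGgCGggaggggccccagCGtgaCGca
Cebpg, chr7:35056567-35056816, minus strand: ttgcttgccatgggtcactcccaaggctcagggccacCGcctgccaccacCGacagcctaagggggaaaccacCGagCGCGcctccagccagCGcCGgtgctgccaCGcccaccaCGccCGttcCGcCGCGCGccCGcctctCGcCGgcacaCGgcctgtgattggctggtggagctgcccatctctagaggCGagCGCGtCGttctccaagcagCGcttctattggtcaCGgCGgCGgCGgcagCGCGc

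The Cebpa promoter held 22 CpG and had a GC content of 66.4%. The Cebpb promoter held 41 CpG at 81.6% GC, and that of Cebpg held 29 CpG at 70.8% GC. The medians over all 32851 promoter entries of this length were 6 CpG and 52.4% GC. All 3 members were above both medians, the unchanged Cebpa as well as the H3K27ac UP genes. The entries were not limited to promoters in an H3K27ac region, so this does not set the members apart from other marked promoters. None of these 250-base windows held a match on either strand to the words listed for C/EBP (TTGCNNAA), the ATF4-C/EBP composite element (TTGCATCA), CRE (TGACGTCA), the unfolded protein response element UPRE (TGACGTGG), AP-1 (TGANTCA), STAT (TTCCNGGAA), the PAR bZIP D-box (TTATGTAA), FOXA (TGTTTAC) or HNF4 (CAAAGTCCA). Among all promoter entries the shares with a match were 9.56% for C/EBP, 0.791% for the composite, 1.55% for CRE, 0.563% for UPRE, 6.75% for AP-1, 0.913% for STAT, 0.819% for the D-box, 3.17% for FOXA and 0.384% for HNF4. An absent match says only that these letters were not in the window. The C/EBP and composite words share their first letters but cannot match at the same place on the same strand.

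Matches did occur elsewhere in the TSS-holding regions. The composite, a word that joins parts of the C/EBP and ATF4 sites, is shown for its match in the TSS-holding region of Cebpb, together with the match to the C/EBP word nearest upstream of the TSS of Cebpa and of Cebpd. Each line gives 30 bases of the mm10 plus strand, with the matching word or its reverse complement in capitals.
Cebpb, composite, chr2:167690098-167690127: gtttcgggactTGATGCAAtccggatcaaa
Cebpa, C/EBP, chr7:35117349-35117378: agtccctctgcTTGCATAAgcgaggatgtc
Cebpd, C/EBP, chr16:15886807-15886836: atcaggctctgTTGCTGAAcctaacctcga

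The Cebpb composite match lay 1198 bp downstream of the TSS, in the 3′ UTR of the gene. It was the 1 composite match of that H3K27ac UP region, and the regions of Cebpa and Cebpd held 0. Among TSS-holding regions of 4000 to 9000 bp, a span chosen after the members' widths were seen, 24.0% of 350 UP regions, 11.4% of 334 DOWN regions and 14.3% of 700 unchanged regions held at least 1 composite match. A match is a description of the sequence and not evidence of binding.

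**Figure D1:**
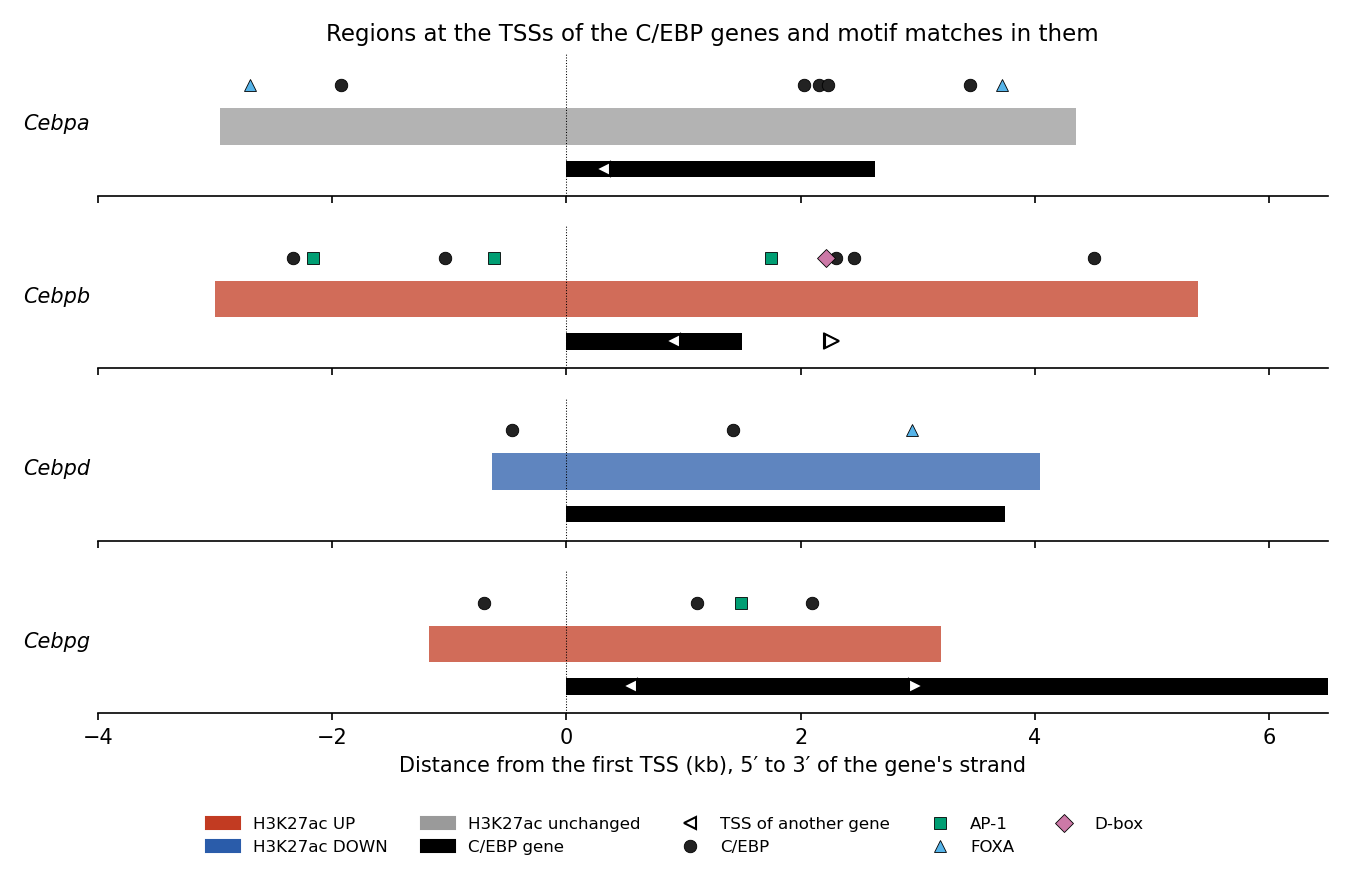
TSS-holding regions of the 4 C/EBP genes (coloured bars, by class), plotted against distance from the first TSS in kb along the strand of the gene, with the gene as a black bar, TSSs of other genes as open triangles that point along their strand, and matches to the C/EBP, AP-1, FOXA and D-box words as symbols above the region. C/EBP matches (black circles) appear in all 4 regions and AP-1 matches (green squares) in the H3K27ac UP regions of Cebpb and Cebpg. Among regions of 4000 to 9000 bp with a TSS, 87.7% of UP, 83.2% of DOWN and 82.3% of unchanged held an AP-1 match. The regions of the 4 genes run from 4379 bp (Cebpg) to 8393 bp (Cebpb).

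Cebpa (ENSMUSG00000034957.10; chr7:35119293-35121928, plus strand), the gene of the hepatocyte-maintaining member, had both annotated TSSs in an unchanged region of 7316 bp (chr7:35116332-35123647). The region reached 2961 bp upstream and 4354 bp downstream of the first TSS and covered 100% of the gene. It was wider than 97.7% of the unchanged regions with a TSS, whose median was 1530 bp. It also held the TSS of the antisense gene Gm45091, 312 bp from that of Cebpa. In sequence it held 5 C/EBP matches, 3 of them in the 3′ UTR of Cebpa, and 2 FOXA matches, with 0 for AP-1.

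Cebpb (ENSMUSG00000056501.3; chr2:167688915-167690418, plus strand), a gene of 1 exon, had its TSS in an H3K27ac UP region of 8393 bp (chr2:167685916-167694308). This was the widest of the 29 regions and was wider than 94.8% of the UP regions with a TSS, whose median was 2136 bp. It reached 2999 bp upstream and 5393 bp downstream of the TSS. Within it lay also the TSS of Tmem189, a protein-coding gene on the opposite strand, at 907 bp downstream of that of Cebpb, and TSSs of the lincRNA A530013C23Rik at 2262 and 2266 bp downstream. The call covered the region as a whole and cannot be assigned to one of these genes. The region held 5 C/EBP matches, 3 AP-1 matches and 1 D-box match beside the composite.

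Cebpd (ENSMUSG00000071637.5; chr16:15887286-15891031, plus strand) had both TSSs in an H3K27ac DOWN region of 4685 bp (chr16:15886646-15891330), the only lowered TSS region of the family. The region began 640 bp upstream of the first TSS and ended 4044 bp downstream of it, so that most of it lay over the gene. Its width was less exceptional within its class, where 60.5% of DOWN regions with a TSS were narrower and the median was 3828.5 bp. It held no TSS of another gene but overlapped the 3′ end of Spidr, which runs on the opposite strand. It held 2 C/EBP matches, at -464 and 1425 bp from the first TSS (negative values are upstream), and 1 FOXA match.

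Cebpg (ENSMUSG00000056216.9; chr7:35046422-35056573, minus strand) had 3 of its 4 TSSs in an H3K27ac UP region of 4379 bp (chr7:35053372-35057750). The remaining TSS, that of a retained-intron transcript, lay 1867 bp outside the region. The region reached 1177 bp upstream and 3201 bp downstream of the first TSS and covered 31.5% of the gene, and it was wider than 81.8% of the UP regions with a TSS. It also held the TSSs of Gm45094, a locus of unsettled type, and of the antisense gene Gm45095. It held 3 C/EBP matches and 1 AP-1 match.

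**Figure D2:**
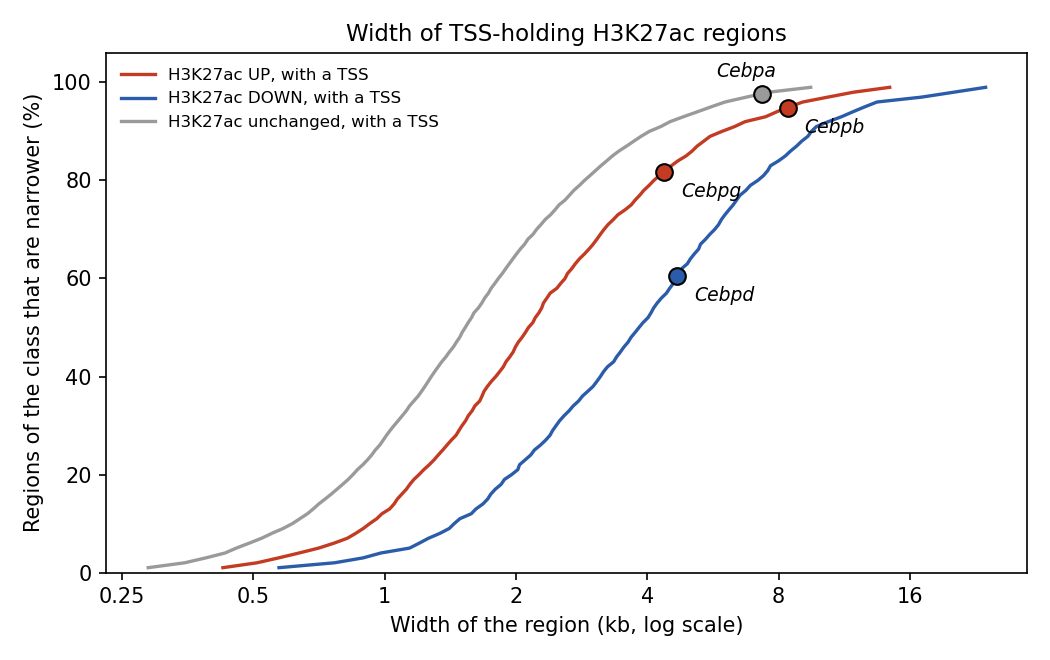
Width in kb (log scale) of the TSS-holding regions of each class against the percentage of the class that is narrower, with the regions of the C/EBP genes as points on the line of their class. Cebpa and Cebpb lie near the top of their classes at 97.7% and 94.8%, Cebpg at 81.8% and Cebpd at 60.5%.

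Wide regions with a TSS were more often called than regions overall. Of the 1384 regions of 4000 to 9000 bp with a TSS, 25.3% were UP, 24.1% DOWN and 50.6% unchanged. The unchanged call at Cebpa, with a width of 7316 bp, was thus the most frequent class for a region of this kind, as it was in the whole series at 72.4%. C/EBP matches were at 0.683 per kb in the region of Cebpa, 0.596 in that of Cebpb, 0.427 in that of Cebpd and 0.685 in that of Cebpg, and the density over all regions was 0.465 per kb. The H3K27ac DOWN region of Cebpd had the lowest density of the 4, from 2 matches, and was below that over all regions. It was close to the density of its class at this width. Over regions of 4000 to 9000 bp with a TSS, the density was 0.425 per kb for UP, 0.439 for DOWN and 0.455 for unchanged. The ratio of observed to expected CpG was 0.554 at Cebpa, 0.516 at Cebpb, 0.603 at Cebpd and 0.603 at Cebpg. The median ratio was 0.309 over DOWN, 0.596 over UP and 0.649 over unchanged regions with a TSS. Over those of 4000 to 9000 bp it was 0.306 for DOWN, 0.387 for UP and 0.384 for unchanged. All 4 members were above each of these width-matched medians, so a high ratio was not particular to the DOWN region of Cebpd.

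Around the genes, the changed regions were few. Each of the 29 regions counted once, 6 were UP (20.7%, 95% Wilson interval 9.85% to 38.4%), 2 were DOWN (6.9%, 1.91% to 22.0%) and 21 were unchanged (72.4%, 54.3% to 85.3%). These intervals cover counting error alone and treat neighbouring regions as independent. The UP and DOWN intervals included the shares over all regions, 17.1% and 10.5%. The side on which the family's shares lay depended on the rule. The DOWN share was 15.4% within 25 kb, 14.8% within 200 kb and 14.3% over regions whose nearest protein-coding TSS was that of a member. The UP share was 15.4%, 20.4% and 14.3% under the same rules. The last rule kept no region for Cebpb, whose TSS-holding region lay nearest to a TSS of Tmem189. All 4 genes had at least 1 UP region within 100 kb, beside 67.7% of genes, and 3 of the 4 had at least 1 DOWN region, beside 44.5% of genes. The window of Cebpg shared 11 regions with that of Cebpa, whose first TSS lay 62720 bp away, so the family gave fewer independent neighbourhoods than genes.

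**Figure D3:**
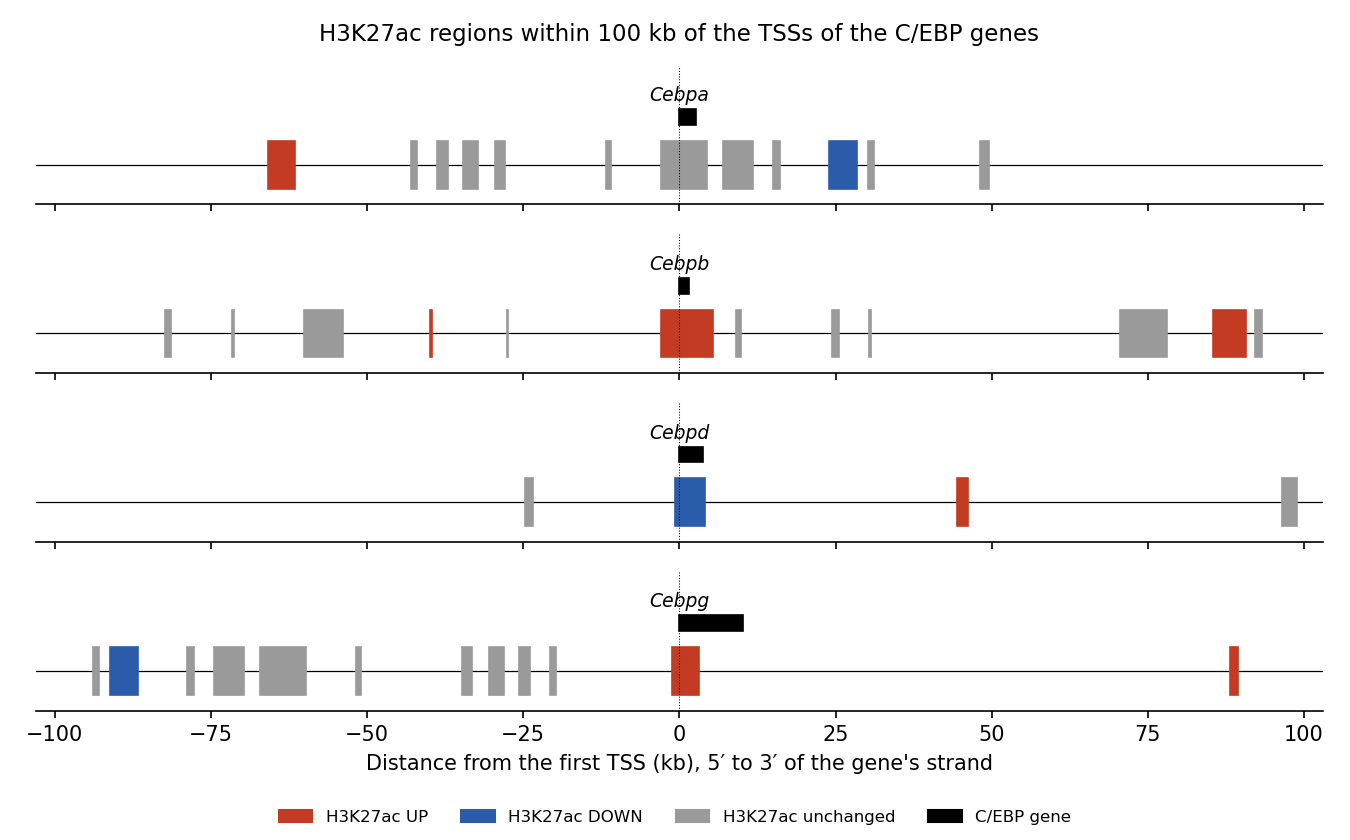
Regions within 100 kb of the TSSs of each C/EBP gene, by distance from the first TSS in kb along the strand of the gene, with red for H3K27ac UP, blue for H3K27ac DOWN, grey for unchanged and a black bar for the gene. Cebpa and Cebpg are neighbours, so that 11 regions appear in both rows, mirrored, while Cebpd has 4 regions and Cebpb has no DOWN region.

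The neighbourhood shared by Cebpa and Cebpg held both directions. From the UP region of Cebpg, 5 unchanged regions of 706 to 2319 bp followed before the unchanged region of Cebpa. Downstream of Cebpa came unchanged regions of 4719 bp and 1160 bp, centred at 9.4 and 15.6 kb from its first TSS. The next region was H3K27ac DOWN, at chr7:35143316-35147671, 4356 bp wide, intergenic and centred at 26.2 kb. It was separated by 1844 bp from an unchanged region on its far side and by 7877 bp from one on its near side. The nearest DOWN region to Cebpa was therefore at 24013 bp and the nearest UP region at 61543 bp, where the medians over all genes with a region were 126462 bp for DOWN and 41297.5 bp for UP. This DOWN region held 2 C/EBP matches and 2 FOXA matches and no composite match. One of its C/EBP matches, in capitals in these 30 bases of the plus strand, is shown because this was the changed region nearest to Cebpa.
Downstream of Cebpa, chr7:35146671-35146700: tacccaggcccTTGCTGAAggattctgggc

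The far 3′ side of Cebpg held 1 more UP region, of 1389 bp, in an intron of Pepd and centred 88.8 kb downstream of the first TSS. The nearest DOWN region to Cebpg was the intergenic one downstream of Cebpa, at 86743 bp. In total Cebpa had 1 UP, 1 DOWN and 10 unchanged regions in its window, and Cebpg had 2 UP, 1 DOWN and 9 unchanged. The medians over all genes were 1 UP, 0 DOWN and 5 unchanged regions.

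The window of Cebpb held 3 UP, 0 DOWN and 9 unchanged regions, and its nearest DOWN region lay 116334 bp away. Beside the region at the TSS, an UP region of only 294 bp lay in an intron of Tmem189, centred at -39.8 kb (chr2:167648953-167649246). The other, of 5291 bp, was centred 88.0 kb downstream (chr2:167774270-167779560), held the TSS of Gm14321 and held 2 matches to CRE, a word found in 10.3% of the 350 UP regions of 4000 to 9000 bp with a TSS and in 2.85% of all regions, which are mostly narrower. UP regions took 42.9% of the region length in this window, against 21.2% over all regions. Of these 13978 bp, 8393 were the region at the TSS. In the windows of Cebpa, Cebpd and Cebpg the UP share of length was 13.9%, 16.3% and 18.3%, below that over all regions. The other regions of the window were unchanged. They included the region with the TSS of Ube2v1, 6277 bp wide and centred at -57.0 kb, and an intergenic region of 7578 bp centred at 74.3 kb.

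Cebpd had the sparsest window of the family, with 4 regions against a median of 7 over all genes. These were the DOWN region at the TSS, 1 UP region and 2 unchanged regions. The UP region (chr16:15931794-15933416, 1623 bp) lay in an intron of Spidr and was centred 45.3 kb downstream. It held 1 C/EBP match and 1 AP-1 match. On the other side, the region at the TSS of Mzt2, 1289 bp wide and centred at -24.1 kb, was unchanged. The UP and DOWN regions of this window were separated by 40463 bp without another region.

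The distance of 100 kb set which regions were counted. The last region inside lay 92.13 kb from a TSS for Cebpb, 95.36 kb for Cebpd, 92.94 kb for Cebpg and 61.54 kb for Cebpa. The first outside lay at 100.4, 101.1, 110.9 and 115.6 kb in the same order of genes, and all 4 were unchanged.

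Genes of proteins related to the family were examined at their TSSs. Ddit3, which encodes the C/EBP relative CHOP that is induced by ERS, had a TSS in an UP region of 6277 bp. Cebpz, named for C/EBP but not a leucine zipper factor, had one in an UP region of 825 bp, and the myeloid member gene Cebpe had none in any region.

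Of 20 genes listed as partners and regulators of C/EBP proteins, Ddit3 among them, 18 had a TSS in a region. Of these 9 were UP (beside 21.6% of all genes), 0 were DOWN (beside 8.33%) and 9 were unchanged. The list and the members were chosen with earlier results known, and no test was made. The UP genes included the leucine zipper factors Atf3 (5516 bp), Xbp1 (4288 bp) and Nfil3 (11815 bp), the last a repressor of D-box genes. The signalling genes Stat3 (2200 bp) and Il6ra (4059 bp), through which interleukin-6 acts on acute-phase genes, were UP, whereas the region of the coreceptor gene Il6st (4409 bp) was unchanged. Trib3 (1846 bp), whose product is a pseudokinase, was UP, as were Cop1 (3048 bp), a ubiquitin ligase gene that acts with Tribbles proteins on C/EBPα, and the kinase gene Gsk3b (11260 bp). Atf4 itself had an unchanged region of 6052 bp. Of the other Tribbles genes in the list, Trib1 had an unchanged region of 7629 bp and Trib2 had no TSS in a region. Jun also had none.

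Of 22 liver genes listed as targets of C/EBP proteins, 17 had a TSS in a region, with 3 UP, 3 DOWN and 11 unchanged. The UP share was 17.6%, beside 21.6% of all genes, and the DOWN share was 17.6%, beside 8.33%. The DOWN share rested on 3 genes and was not particular to C/EBP targets. Among the 7 hepatocyte markers, some of them also in this list, 3 (42.9%) were DOWN and 0 were UP. Of the TSS-holding regions of 4000 to 9000 bp, 24.1% were DOWN. No test was made. The UP genes were the alcohol dehydrogenase gene Adh1 (3129 bp) and the acute-phase genes Orm1 (7898 bp) and Apcs (3118 bp). The DOWN genes were also secreted-protein genes of the acute phase, namely Hp for haptoglobin (9757 bp), Hpx for hemopexin (10322 bp) and Fgb for the fibrinogen beta chain (10425 bp). The acute-phase genes in the list were thus found in both classes, and Itih4 (3459 bp) and Lcn2 (3491 bp), also of the acute phase, had unchanged regions. The listed targets with unchanged regions included Alb (8259 bp) and the gluconeogenic genes Pck1 (1984 bp) and G6pc (3288 bp). The 5 targets with no TSS in a region were Orm2, Saa1, Saa2, Saa3 and Ppargc1a. Orm1 and Orm2 are near-identical copies, as are Saa1 and Saa2, and how reads shared by copies were placed was not tested.

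**Figure D4:**
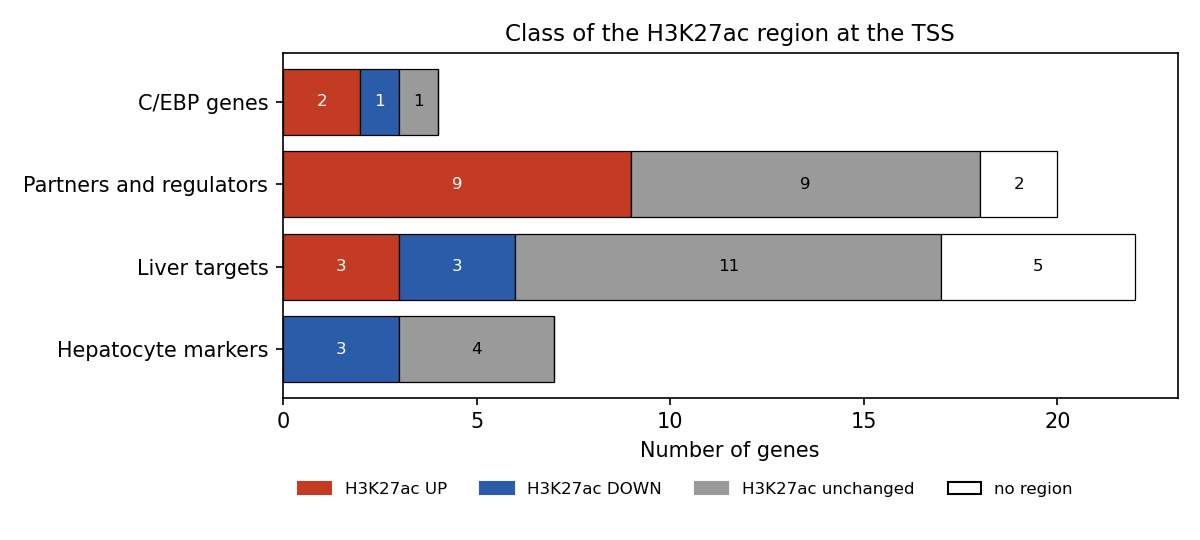
Number of genes by the class of the region at the TSS, for the 4 C/EBP genes, 20 partners and regulators, 22 liver targets and 7 hepatocyte markers, with white for genes with no TSS in a region. UP took 9 of the partners and regulators and DOWN 0, while the liver targets had 3 of each. The hepatocyte markers had 0 UP and 3 DOWN.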

How the data were processed

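H3K27ac ChIP-seq was made from MPH treated with thapsigargin or DMSO. Per the labels and the study's methods, the authors aligned reads to mm10 with Bowtie, removed duplicates and blacklisted reads, counted reads in bins, normalised them by loess, tested bins in a paired design with csaw under a false discovery rate threshold, and used MACS2 regions called on pooled libraries. The deposited lists hold positions in base pairs, unit "other", with no count, signal or p-value, so depth is unknown and no test was possible here. Starts were converted to count from 1. TSSs were those of 141767 GENCODE M21 transcripts (mm10). Regions were joined to TSSs by overlap and within 100 kb with Python 3.11.15, and checked on simulated data. Motifs were searched as words on both strands of GRCm38.p6, and promoters came from RefSeq. Intervals are Wilson intervals (95%, scipy 1.17.1), for counting error only. Figures used matplotlib 3.10.9. Members, lists and words were chosen with earlier results of these data known. Named genes were the members, their relatives, neighbours whose regions are described, and listed genes in UP or DOWN regions with Atf4. Other named genes (Il6st, Alb, Pck1, G6pc, Itih4, Lcn2, Jun, Trib1, Trib2, Orm2, Saa1, Saa2, Saa3, Ppargc1a, Pepd, Spidr, Stab2, Sox9) were chosen after their values were seen. Alternatives were other distances, overlap rules, width limits and TSS sets. One motif match is not reported here.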

Additional observations from a re-analysis of the deposited data

How the results depend on the processing

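Of 41 alternatives, 37 were recorded as the same as the main result and 4 as moved. The alternatives recounted overlapping sets of regions. The intervals of the shares were wide, at 9.85% to 38.4% for UP and 1.91% to 22.0% for DOWN. This tally therefore says little about robustness. The class at the TSSs was the same for all 4 genes when a region had to extend 500 bp past the TSS in both directions or could lie within 1 kb of it. The coordinates fixed this outcome, so it adds nothing to the class calls. Each region reached at least 640 bp upstream and 3201 bp downstream of the first TSS. The closest other region lay 2653 bp from the TSS-holding region of a member. The number of UP minus DOWN regions was 0 for Cebpa and became -1 at 50 kb, 3 at 200 kb and -1 when only regions nearest to its own TSS counted. For Cebpb it was 3 and became 0 at 200 kb. Under the nearest-TSS rule no region remained for Cebpb, since a TSS of Tmem189, Ube2v1 or Gm20431 was nearer to each, so no value was given. The UP share ran from 14.3% to 28.3% and the DOWN share from 5.26% to 15.4% over the alternatives. No paired analysis was possible because the lists hold no value for a library. For the same reason no replicate could be left out and no stricter threshold applied. Depth, the size of a change and its error could not be assessed.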
